A study of Mus musculus with 6 samples.

Results

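The proteasome is the protease complex that degrades most ubiquitin-tagged proteins of the cell. Genes of its subunits, activators, inhibitor and assembly factors were taken as the protein-coding genes whose mouse symbol begins with Psm, continues with a letter from a to g and ends in a number with at most one letter after it. That rule found 49 genes of the 54232 in the count files. The genes were described in the livers of mice that lack both the bile acid receptor FXR everywhere and the transcription factor XBP1 in the liver, set against livers that lack FXR alone. The double knockout (DKO, Fxr-/-Xbp1LKO) and the single knockout (SKO, Fxr-/-Xbp1fl/fl) had 3 RNA-seq libraries each, all from chow-fed C57BL/6 males aged 8 to 10 weeks. Both groups therefore carried the FXR deletion, and the contrast bears on hepatic XBP1 in its absence only. The sources used here name neither the promoter that drives the liver deletion nor the deleted exons. The titles of all 3 DKO libraries and of 1 SKO library join 2 numbers whose meaning the labels do not give.

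The core particle is a barrel of stacked rings. The alpha rings form its gate, and the beta rings hold the proteolytic sites. A regulatory particle caps the barrel, recognises ubiquitin, and unfolds the substrate with a ring of ATPases. XBP1 is a factor of the unfolded protein response. It controls genes of the endoplasmic reticulum, including those that send misfolded proteins out to the proteasome. The proteasome genes themselves are known to be controlled together by NRF1, the product of Nfe2l1, when proteasome activity is short. Interferon-gamma is known to induce the immunoproteasome subunits, which replace the catalytic subunits and favour peptides for MHC class I. Hepatocytes make up most of the liver's mass, while the immunoproteasome is most abundant in leukocytes.

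The 6 libraries held between 16966422 and 21107674 counts. edgeR's quasi-likelihood test with Benjamini-Hochberg adjustment was run on 13986 genes. A call here means an adjusted p below 0.05 in that test. It called 1446 genes higher and 1357 lower in DKO liver. Xbp1, one of the genes named as deleted, had 95.7, 67.0 and 68.2 CPM (counts scaled to library size after normalisation) in the DKO libraries, against 225, 260 and 254 CPM in the SKO libraries. The groups of Xbp1 values did not overlap, and reads remained in every DKO library. Nr1h4, the FXR gene, averaged 97.3 ± 3.34 CPM in DKO and 98.4 ± 5.93 CPM in SKO libraries (SD, n = 3 each), so its total count does not check that deletion. Hepatocyte markers summed to between 55990 and 69020 CPM in DKO libraries and between 85870 and 113500 CPM in SKO libraries. Alb, the highest of the 10, averaged 35760 CPM in DKO and 66410 CPM in SKO libraries. Alb, Apoa1, Ttr, Serpina1a and Apob, 5 of the 10, were called lower. Tat, Asgr1, Cps1, Tdo2 and Hnf4a were not called, with log2 fold changes, DKO over SKO, between -0.275 for Tdo2 and 0.594 for Tat. Of the other lists, 7 of 17 leukocyte, 7 of 10 stellate cell and fibroblast, and 3 of 6 cholangiocyte markers were called higher, and none of 7 endothelial or 5 tested red blood cell markers was called. In whole tissue, fewer cells of a type and less RNA per cell cannot be told apart. Nothing in the labels gives each library an animal of its own, and the p-values therefore reflect library-to-library spread that may be technical.

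Of the 49 proteasome genes, 48 passed the filter on low counts, 1 was called higher and none was called lower. Over all genes tested, edgeR called 20.0% in either direction, 10.3% higher and 9.70% lower. Without adjustment, 6 proteasome genes had a p under 0.05, where 34.5% of all genes did. The log2 fold changes of the 48 genes, DKO over SKO, ran between -0.20 for Psma6 and 0.70 for Psmg4. Their median was 0.02, beside 0.006 over all genes tested, with 26 values above 0 and 22 below. The 95% interval of the log2 fold change lay within 0.5 of 0 for 44 of the 48 genes, and for 47.6% of all genes tested. The exceptions were Psmg4 together with Psma8, Psmb5 and Psme2b. Proteasome genes and all genes were not matched for level here. With a filter of 5 CPM in 3 libraries, 46 proteasome genes and 9926 of all genes remained. DKO and SKO libraries overlapped for 37 of the 48. All DKO libraries lay above all SKO libraries for 6 genes and below them for 5. Over all genes tested, 39.6% did not overlap, 20.2% with DKO above and 19.4% with DKO below. Summed over the 48 genes, the level was between 3702 and 3744 CPM in DKO libraries and between 3548 and 3871 CPM in SKO libraries, so the DKO sums lay inside the range of the SKO sums.

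The count of calls rests on how libraries are scaled. With total counts as the only scaling, the median of all genes moved to 0.225 and that of the proteasome genes to 0.24 on the log2 scale, and 20 of the 48 were then called higher where 27.5% of all genes were. Relative to the median of all genes, the median of the proteasome genes was 0.013 under total counts, as under the main normalisation, and between -0.034 and 0.042 over the 13 alternatives.

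**Figure D1:**
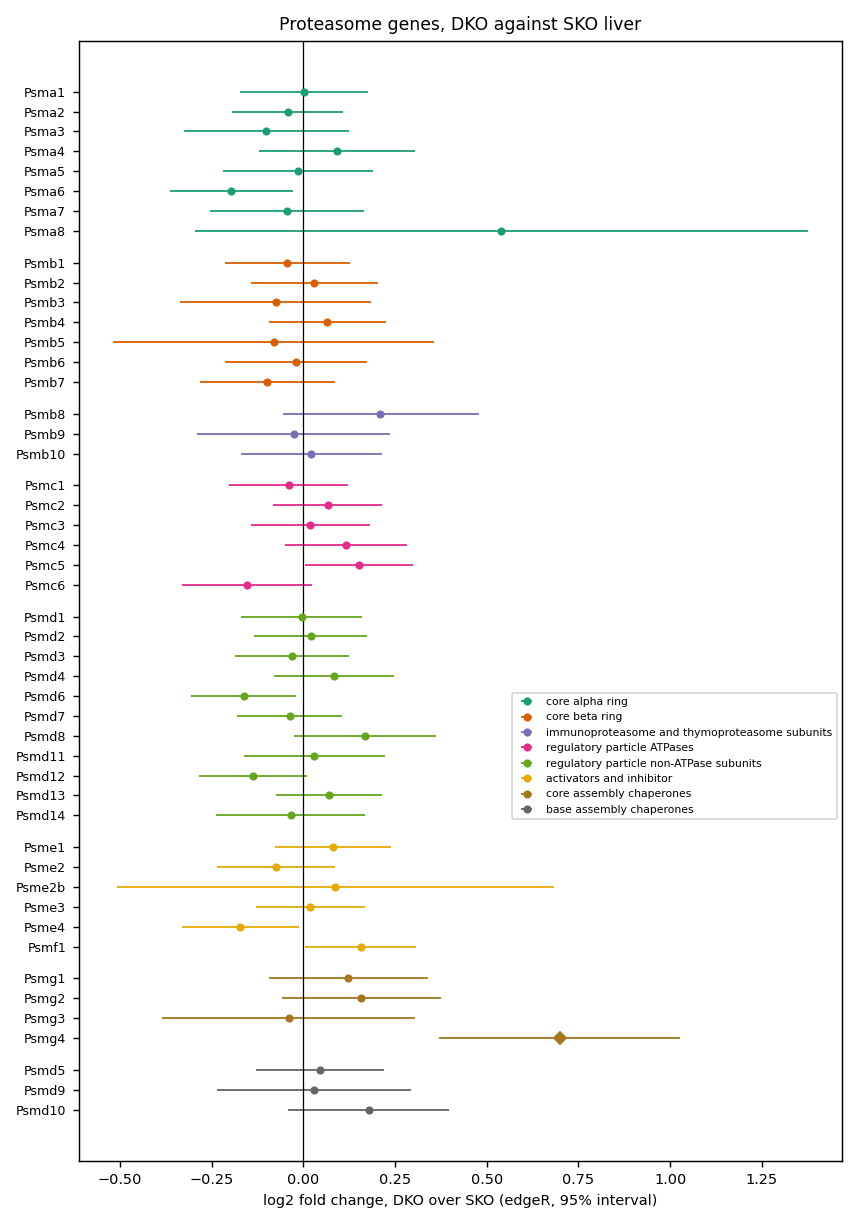
Log2 fold change, DKO over SKO (horizontal axis), of the 48 tested proteasome genes (vertical axis, grouped and coloured by role), with the 95% interval from edgeR, 3 libraries per group. All points lie within 0.5 of 0 except Psma8, at 0.54 with the widest interval and not called, and Psmg4, the one gene called, marked by a diamond at 0.70.

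Psmg4 (ENSMUSG00000071451), at chr13:34162964-34178173 on the plus strand of mm10, encodes an assembly chaperone that pairs with the product of Psmg3 in building the alpha ring. It had 176, 145 and 154 counts in the DKO libraries and 79, 88 and 71 counts in the SKO libraries. Normalised, these were 7.39, 7.08 and 7.98 CPM in DKO liver and 5.02, 4.82 and 3.996 CPM in SKO liver. Every DKO library was above every SKO library. The log2 fold change was 0.70 ± 0.15 (SE), a 1.62-fold higher level, with an interval of 0.37 to 1.03 and an edgeR adjusted p of 0.0101. Psmg4 was called in each of the 13 alternatives, with a log2 fold change between 0.60 and 0.92 and an adjusted p of at most 0.0435. It was also the one proteasome gene called by DESeq2 and by limma-voom, which called 8.93% and 9.32% of all genes higher. Its annotated exons span 555 bases, overlap no other gene and share no 50-base word with another annotated gene. Over the same libraries the 17 leukocyte markers, of which 7 were called higher, summed to between 663 and 1007 CPM in DKO and between 427 and 588 CPM in SKO libraries, with none at 0. Stellate cell and fibroblast markers summed to between 638 and 940 CPM in DKO and between 366 and 430 CPM in SKO libraries, and none was at 0. Cholangiocyte markers summed to between 121 and 199 CPM in DKO and between 61.1 and 73.9 CPM in SKO libraries, again with none at 0. The part of other cell types in the Psmg4 result was not tested.

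The other chaperones of the core were not called. Psmg3, the partner of Psmg4, had 11.0, 15.3 and 14.4 CPM in DKO and 14.5, 15.8 and 11.5 CPM in SKO liver, with a log2 fold change of -0.04 ± 0.15. Psmg1 and Psmg2 form the other chaperone pair, which guides the alpha ring. Psmg1 had 20.6, 21.6 and 22.6 CPM in DKO and 18.2, 19.1 and 22.2 CPM in SKO liver, and the groups overlapped through SKO replicate 3. Psmg2 had 14.28, 14.35 and 13.89 CPM in DKO and 13.85, 12.11 and 12.21 CPM in SKO liver, with a log2 fold change of 0.16 ± 0.10 and an edgeR adjusted p of 0.287. Its DKO libraries lay above its SKO libraries by a margin that was smallest against SKO replicate 1. The chaperones of the base of the regulatory particle are Psmd5, Psmd9 and Psmd10. Psmd10, also known as gankyrin, had 13.3, 13.9 and 12.5 CPM in DKO and 12.1, 11.9 and 11.1 CPM in SKO liver, with no overlap and an edgeR adjusted p of 0.233. Psmd5 and Psmd9 had log2 fold changes of 0.05 and 0.03 with overlapping groups. For Psmd9, 25.5% of the annotated exon bases overlap a gene on the other strand. The sources used here do not say whether the authors' counting used strand.

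The stretch around the start of Psmg4 is shown because it is the one gene called. RefSeq (GRCm38.p6, the assembly also called mm10) places its promoter window, the 250 bases before the start and the 50 after it, at chr13:34162714-34163013 on the plus strand. Capitals mark a match on the other strand to the interferon-stimulated response element, searched as TTTC, 2 bases of any kind and TTTC, which begins at position 16 after the start.
Psmg4: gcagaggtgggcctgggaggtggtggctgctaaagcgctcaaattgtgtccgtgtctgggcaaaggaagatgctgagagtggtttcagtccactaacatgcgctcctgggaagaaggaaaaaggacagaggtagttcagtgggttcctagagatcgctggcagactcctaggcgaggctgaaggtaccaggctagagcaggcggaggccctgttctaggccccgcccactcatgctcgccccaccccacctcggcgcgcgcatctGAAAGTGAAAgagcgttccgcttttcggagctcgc
Windows were found for 41 of the 49 genes, 44 windows in all, and 7 motifs were searched on both strands. The interferon element was present in 5 of the 44 windows (11.4%) and in 3.44% of all 32851 windows, and the other 4 genes were Psmb3, Psmd4, Psmd9 and Psme1. None of those 4 genes was called. The ER stress response element, searched as CCAAT and CCACG with 9 bases between them, through which XBP1 is known to act, was in no proteasome window and in 0.119% of all windows. The CCAAT box, which is part of that element, was in 14 windows (31.8%) and in 37.4% of all. The CEBP-ATF element TGATGNAA was in 1 window, that of Psmd13, and in 3.97% of all windows. The gamma-activated sequence, searched as TTCNNNGAA, was in 3 windows (6.82%) and in 8.30% of all windows. Those 3 windows belong to Psmb8, Psmd2 and Psmg1, none of which was called. A match is a description of the letters only.

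The alpha ring was represented by Psma1 to Psma7 and by Psma8, a testis-specific replacement for Psma7. No alpha gene was called, and the median log2 fold change of the 8 was -0.03. Psma6 (ENSMUSG00000021024, chr12:55384222-55418454, plus strand), a constitutive alpha subunit, had 112, 118 and 121 CPM in DKO liver, against 141, 136 and 125 CPM in SKO liver. All 3 DKO libraries were below the lowest SKO library. Its log2 fold change of -0.20 ± 0.07 had an interval of -0.36 to -0.03 and missed the threshold in edgeR, with an adjusted p of 0.0935 and of 0.0823 to 0.225 when a library was left out. Psma1 stood at the same level in both groups, with 113, 115 and 115 CPM in DKO and 125, 110 and 106 CPM in SKO liver and a log2 fold change of 0.00 ± 0.08. Psma8 was low in liver, with 1.93, 2.001 and 1.09 CPM in DKO and 1.14, 1.70 and 0.619 CPM in SKO liver. Its log2 fold change of 0.54 had an interval of -0.30 to 1.38, the widest among the 48 tested proteasome genes. The groups overlapped for Psma2, Psma3, Psma4, Psma5 and Psma7, whose log2 fold changes lay between -0.10 for Psma3 and 0.09 for Psma4.

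The window of Psma1 is shown because it was the one proteasome window with the core of the unfolded protein response element, TGACGTG, which XBP1 is known to bind. It lies at chr7:114276067-114276366 on the minus strand (RefSeq, GRCm38.p6), and capitals mark the match, which begins at position -160 from the start.
Psma1: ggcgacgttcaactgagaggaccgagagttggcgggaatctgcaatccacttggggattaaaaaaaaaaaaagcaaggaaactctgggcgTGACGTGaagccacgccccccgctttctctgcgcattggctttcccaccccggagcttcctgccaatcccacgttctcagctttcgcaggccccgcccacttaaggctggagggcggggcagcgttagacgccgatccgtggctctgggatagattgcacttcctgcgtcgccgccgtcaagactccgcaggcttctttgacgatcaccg
The element was in 1 of the 44 proteasome windows (2.27%) and in 2.01% of all windows. Psma1, whose fold change is given above, was not called.

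The constitutive beta ring genes Psmb1 to Psmb7 were not called either, and their median log2 fold change was -0.04. Psmb1, Psmb2, Psmb3 and Psmb4 encode subunits without proteolytic activity of their own. Psmb1 averaged 149 ± 4.04 CPM in DKO and 154 ± 9.92 CPM in SKO libraries, and Psmb4 averaged 160 ± 1.34 CPM in DKO and 153 ± 7.15 CPM in SKO libraries (SD, n = 3 each). Psmb2 and Psmb3 had log2 fold changes of 0.03 and -0.08. Each of these 4 genes had overlapping groups. Psmb6 carries the caspase-like and Psmb7 the trypsin-like activity. Psmb6 had 129, 138 and 133 CPM in DKO and 150, 134 and 122 CPM in SKO liver, so the DKO values lay inside the SKO range. Psmb7 had 76.2, 79.5 and 78.8 CPM in DKO and 92.1, 84.2 and 75.0 CPM in SKO liver, with a log2 fold change of -0.10 ± 0.08. Psmb5 carries the chymotrypsin-like activity. It had 19.7, 12.9 and 21.7 CPM in DKO and 22.1, 18.5 and 16.9 CPM in SKO liver. DKO replicate 2 was the lowest of the 6, and the interval of the log2 fold change, -0.52 to 0.36, was the widest of the constitutive core genes.

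The window of Psmb5 is shown for the antioxidant response element, TGACNNNGC, the kind of site through which NRF1 is known to control proteasome genes. It lies at chr14:54617946-54618245 on the minus strand (RefSeq, GRCm38.p6). Capitals mark the match, which begins at position -47 from the start. Its first letters are also those with which the unfolded protein response core begins, so matches to both motifs can overlap.
Psmb5: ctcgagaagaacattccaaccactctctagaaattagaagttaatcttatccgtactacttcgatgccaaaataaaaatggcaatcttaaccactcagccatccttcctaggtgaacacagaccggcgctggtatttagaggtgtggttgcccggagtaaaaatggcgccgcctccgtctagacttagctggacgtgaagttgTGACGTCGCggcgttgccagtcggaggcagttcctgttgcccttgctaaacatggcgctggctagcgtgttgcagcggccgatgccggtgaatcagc
The antioxidant element was in 6 of the 44 windows (13.6%) and in 12.4% of all windows, so its share among proteasome genes was near that of all promoters. The other windows with a match belong to Psmb6, Psmc6, Psmd12, Psmd9 and Psme4. None of the 6 genes was called.

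The inducible catalytic subunits Psmb8, Psmb9 and Psmb10 replace Psmb5, Psmb6 and Psmb7 in the immunoproteasome. None was called. Psmb8 had 22.1, 20.7 and 25.6 CPM in DKO and 20.7, 16.7 and 21.7 CPM in SKO liver, with a log2 fold change of 0.21 ± 0.12 and an edgeR adjusted p of 0.249. The groups overlapped, and the interval of -0.06 to 0.48 included 0. Psmb9 had 15.8, 13.8 and 18.5 CPM in DKO and 17.3, 15.2 and 16.3 CPM in SKO liver. Psmb10 had 32.8, 38.8 and 37.3 CPM in DKO and 36.0, 33.7 and 37.5 CPM in SKO liver. Both were near 0 on the log2 scale, at -0.03 ± 0.12 for Psmb9 and 0.02 ± 0.09 for Psmb10. Leukocyte markers were higher in the same DKO libraries (7 of 17 called, none lower), and their part in the Psmb8 values was not tested. Psmb11, the thymus-specific catalytic subunit, had 3 counts over all 6 libraries and was not tested. No library had more than 1 count of it, which is below the limit of 3 counts per library, equal here to between 0.126 and 0.191 CPM.

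The ratio of each inducible subunit to the subunit it replaces was computed per kilobase of exon within each library, where scaling between libraries cancels. The log2 ratio of Psmb8 to Psmb5 was -1.75, -1.24 and -1.67 in the DKO libraries and -2.005, -2.06 and -1.56 in the SKO libraries. The mean difference of 0.32 was similar in size to the SDs of 0.28 in each group, and the exact two-sided permutation test gave p = 0.3, adjusted to 0.6 over the 3 pairs. With 3 against 3, the smallest p that this test allows is 0.1. The Psmb8 to Psmb5 difference ran from 0.16 to 0.48 when a library was left out. Its highest ratio, in DKO replicate 2, is from the library with the lowest Psmb5 level, 12.9 CPM. The log2 ratio of Psmb9 to Psmb6 was -4.03 ± 0.24 in DKO and -4.02 ± 0.13 in SKO libraries (SD, n = 3 each), and the exact permutation p was 1.0. That difference of -0.018 turned to 0.11 without DKO replicate 2 and to 0.06 without SKO replicate 3. The log2 ratio of Psmb10 to Psmb7 was -0.11 ± 0.10 in DKO and -0.22 ± 0.20 in SKO libraries (SD, n = 3 each), and the exact permutation p was 0.4, adjusted to 0.6. Of the 50-base words of Psmb5, 57.1% are shared with other annotated genes, so its ratio to Psmb8 also rests on how such reads were counted. Psmb7 shares 28.1% with Nek6, Psmb9 12.5% with Tap1 and Psmb8 5.83% with Gm20496. Those genes overlap 11.8%, 5.8% and 14.7% of the respective exon bases on the other strand. Psmb6 shares 2.67% and Psmb10 none. All 3 ratios may therefore also depend on the strand setting, which is not known here.

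**Figure D2:**
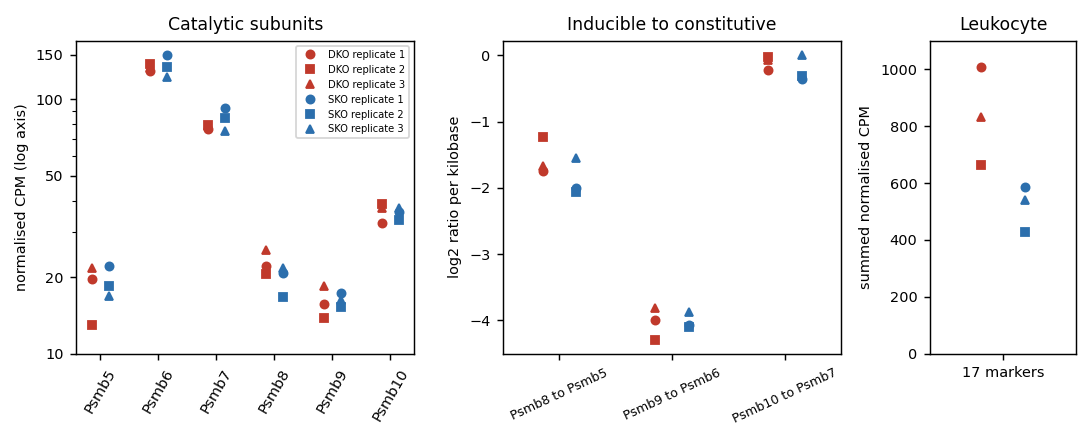
Left, normalised CPM (log axis) of the 3 constitutive and 3 inducible catalytic subunits in each of the 6 libraries; middle, the log2 ratio per kilobase of each inducible to its constitutive subunit; right, the summed CPM of 17 leukocyte markers. DKO and SKO points overlap for every subunit and ratio, while the leukocyte sums of the 3 DKO libraries, the lowest at 663 CPM, lie above those of the SKO libraries.

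The regulatory particle was represented by 17 subunits. None was called, and all 17 intervals lay within 0.5 of 0 on the log2 scale, with a median log2 fold change of 0.02. Psmc1 to Psmc6 encode the ATPases that unfold the substrate. Psmc5 had 87.9, 89.0 and 82.0 CPM in DKO, against 79.3, 76.5 and 77.4 CPM in SKO liver, and the groups did not overlap. Its log2 fold change was 0.15 ± 0.07, with an edgeR adjusted p of 0.138. Psmc6, the ATPase at the other end of the range, had 94.9, 90.9 and 96.0 CPM in DKO, against 113, 106 and 94.8 CPM in SKO liver, with a log2 fold change of -0.15 ± 0.08 and an edgeR adjusted p of 0.203. Its groups overlapped through SKO replicate 3. Psmc1, Psmc2, Psmc3 and Psmc4 had log2 fold changes between -0.04 for Psmc1 and 0.12 for Psmc4, all with overlapping groups.

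Among the 11 non-ATPase subunits, Psmd1 and Psmd2 are the large scaffold subunits of the base. Psmd2 varied little, with 175, 179 and 178 CPM in DKO and 177, 173 and 175 CPM in SKO liver. Psmd1 averaged 128 ± 5.27 CPM in DKO and 128 ± 6.47 CPM in SKO libraries (SD, n = 3 each). Psmd4 is a ubiquitin receptor, and its log2 fold change was 0.08 ± 0.07. Psmd14 is the deubiquitinase that removes the ubiquitin chain as a substrate enters, and Psmd7 is its partner. Psmd14 had 57.7, 59.5 and 57.4 CPM in DKO and 66.2, 61.3 and 51.3 CPM in SKO liver, so the DKO values lay inside a wider SKO range. Psmd7 had a log2 fold change of -0.04 ± 0.06.

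The scaffold subunits of the lid are Psmd3, Psmd6, Psmd8, Psmd11, Psmd12 and Psmd13. Psmd6 had 77.9, 75.3 and 76.2 CPM in DKO, against 88.6, 85.2 and 83.1 CPM in SKO liver. Its log2 fold change was -0.16 ± 0.07 with an edgeR adjusted p of 0.105. Psmd12 had 90.4, 92.9 and 86.6 CPM in DKO, against 100, 100.3 and 96.8 CPM in SKO liver, and an edgeR adjusted p of 0.169. In both genes every DKO library was below every SKO library. Psmd13 had 84.7, 90.6 and 86.2 CPM in DKO and 84.6, 82.8 and 81.9 CPM in SKO liver, separate by the small margin between DKO replicate 1 and SKO replicate 1. Psmd8 had 166, 146 and 153 CPM in DKO and 148.3, 141 and 125 CPM in SKO liver, the highest log2 fold change of the 17 at 0.17 ± 0.09, with overlapping groups and an edgeR adjusted p of 0.207. Psmd3 and Psmd11 had log2 fold changes of -0.03 and 0.03 with overlapping groups.

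The activators and the inhibitor were not called. Psme1 and Psme2 encode the interferon-inducible activator PA28. Psme1 had 114, 112 and 104 CPM in DKO and 107, 104 and 100.2 CPM in SKO liver. Psme2 had 28.6, 29.5 and 30.2 CPM in DKO and 31.4, 30.4 and 31.1 CPM in SKO liver, a difference of -0.08 on the log2 scale with no overlap. The partners thus lay on opposite sides of 0, and neither passed the test. Psme3, a nuclear activator, had a log2 fold change of 0.02 ± 0.07. Psme4, the nuclear activator PA200, had 162, 174 and 166 CPM in DKO, against 192, 188 and 186 CPM in SKO liver, with a log2 fold change of -0.17 ± 0.07 and an edgeR adjusted p of 0.120. Psmf1, known as an inhibitor of the core particle in vitro, had 53.2, 54.9 and 58.8 CPM in DKO, against 49.2, 49.1 and 51.4 CPM in SKO liver, with a log2 fold change of 0.16 ± 0.07 and an edgeR adjusted p of 0.133. The groups did not overlap for either gene. Psmf1 passed the threshold with upper-quartile scaling, where 13.3% of all genes were called higher, and with total counts. Psme2b stayed under 1.5 CPM in every library. It shares 69.3% of its 50-base words with other annotated genes, Psme2 among them, so its reads and those of Psme2, with 59.3% shared, are uncertain.

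**Figure D3:**
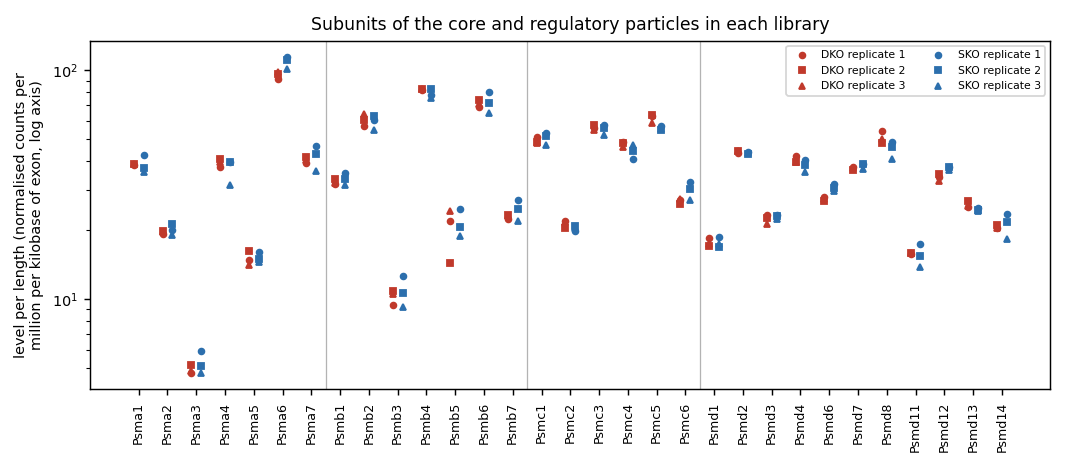
Level per length in CPM per kilobase of annotated exon (log axis) of the 14 constitutive core subunits and the 17 regulatory particle subunits in each library, with vertical lines between alpha ring, beta ring, ATPases and non-ATPases. The 2 groups lie together at each subunit, while the subunits of the core span 20.1-fold from Psma3 to Psma6.

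Subunits that enter the complex in equal numbers did not have equal RNA levels per length. Over the 6 libraries, the 14 constitutive core subunits ran from 5.08 CPM per kilobase of exon for Psma3 to 102 CPM per kilobase for Psma6, a span of 20.1-fold. The 17 regulatory particle subunits ran from 15.7 CPM per kilobase for Psmd11 to 58.8 CPM per kilobase for Psmc5, a span of 3.75-fold. In both groups of libraries Psma3 was the lowest and Psma6 the highest core subunit, with spans of 19.4-fold in DKO and 20.7-fold in SKO means. The median level of the 31 subunits was 35.7 CPM per kilobase. With the longest annotated transcript as the length it was 52.6 CPM per kilobase, and Psmb6 was then the highest, so the order of subunits also rests on the length used.

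Several low subunits share sequence with other annotated genes. Of the 50-base words of the longest coding transcript, Psmb5 shared 57.1%, Psmb3 55.8% and Psma5 55.4% with at least 1 other gene. Their levels were 20.8, 10.5 and 15.1 CPM per kilobase. Psma3, the lowest subunit, shared 22.0%. The 7 subunits that shared over 20% had a median of 20.8 CPM per kilobase, and the 24 others had a median of 38.1 CPM per kilobase, with ranges that overlapped. Words were matched on both strands, so a gene that overlaps a subunit's exons on the other strand counts as well. All shared words of Psmb7 (28.1%) were with such a gene, Nek6, which overlaps 11.8% of its exon bases. For Psma4 and Psma5, such genes overlap 4.8% and 4.5% of the exon bases. The sources used here do not give the strand setting or say how the authors counted reads that map to several places. The part of shared sequence in these levels was therefore not tested. Leaving out the proteasome genes that shared over 20% left Psmg4 as the one gene called.

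**Figure D4:**
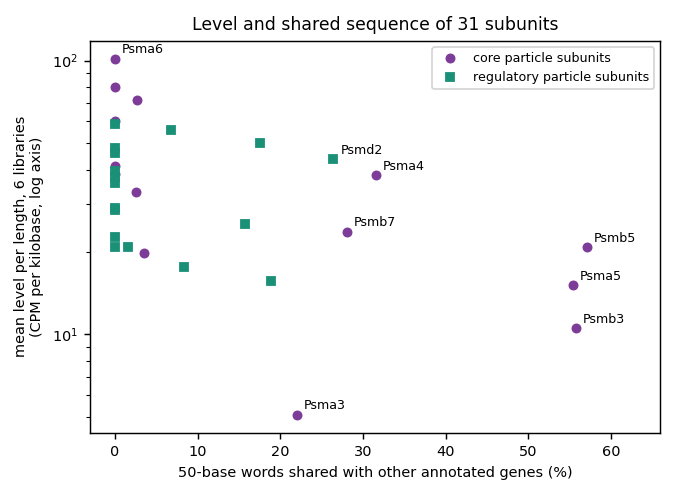
Mean level per length over the 6 libraries (CPM per kilobase, log axis) against the share of 50-base words that a subunit's longest coding transcript has in common with other annotated genes, for 31 subunits. Words were matched on both strands. The 3 subunits over 50%, Psmb5, Psma5 and Psmb3, lie between 10.5 and 20.8 CPM per kilobase, and Psma6, which shares none, is at 102.

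Within each genotype the core subunits tended to be high or low in the same libraries. DKO replicate 1 was the lowest DKO library for 12 of the 14 constitutive core subunits, where it was the lowest for 36.5% of all genes tested. Among SKO libraries, replicate 3 was the lowest for 14 of 14 core subunits, where it was the lowest for 32.1% of all genes. SKO replicate 1 was the highest for 11 of the 14, against 37.0% of all genes. Among the 17 regulatory particle subunits, DKO replicate 1 stood the other way, as the highest DKO library for 9 and the lowest for 3. SKO replicate 1 was again the highest SKO library, for 14 of the 17, and SKO replicate 3 the lowest, for 12. These libraries are replicates with no order, and the subunits share each library, so the counts describe single libraries. The core subunits had a median coefficient of variation of 3.52% among DKO libraries and 9.55% among SKO libraries. The regulatory particle subunits had medians of 3.28% among DKO and 5.05% among SKO libraries. Over all genes tested, which were not matched for level, the medians were 9.34% among DKO and 9.72% among SKO libraries. The difference in spread between the genotypes was not tested. In SKO liver it rests on the distance between replicate 1, where the median core subunit lay 0.15 above its mean over the 6 libraries on the log2 scale, and replicate 3, where it lay at -0.10.

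**Figure D5:**
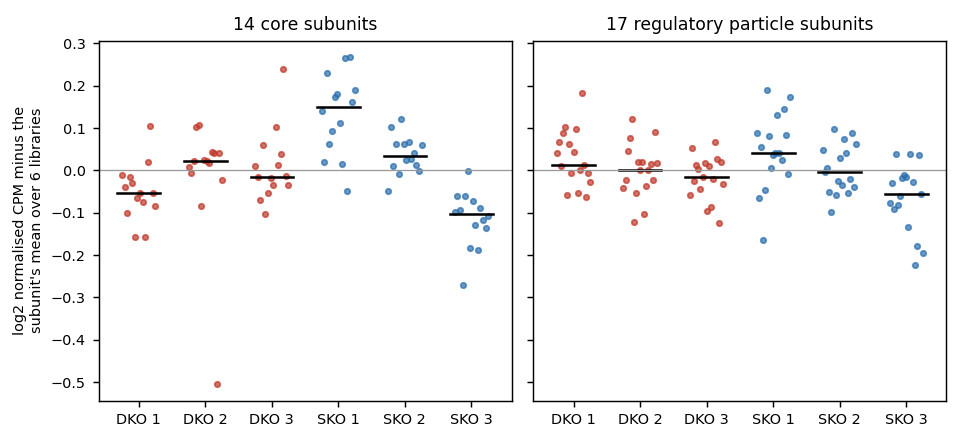
Deviation of each subunit's log2 CPM from its own mean over the 6 libraries (vertical axis), by library, for the 14 constitutive core and 17 regulatory particle subunits; points are subunits and bars are medians. The core medians lie between -0.05 and 0.02 in the DKO libraries, at 0.15 in SKO replicate 1 and at -0.10 in SKO replicate 3; the low point in DKO replicate 2 is Psmb5.

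The genes around the proteasome were read from 5 lists. The median log2 fold change of the 11 partners outside the symbol pattern was -0.08. Of them, 1 was called lower and none higher, where 9.70% of all genes were called lower and 10.3% higher. That gene, Adrm1, a ubiquitin receptor of the regulatory particle, had 12.4, 12.6 and 11.1 CPM in DKO, against 15.4, 15.2 and 14.6 CPM in SKO liver. Its log2 fold change of -0.32 ± 0.10 had an edgeR adjusted p of 0.0426, and the call was lost in 11 of the 13 alternatives, including each of the 6 that left out a library (adjusted p of 0.0538 to 0.144). Pomp, the maturation factor of the core, and Sem1, a small lid subunit, had log2 fold changes of -0.04 ± 0.07 and -0.06 ± 0.08 and were not called.

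Of 14 regulators of proteasome gene transcription, 4 were called lower in DKO liver and none higher, where 9.70% of all genes were called lower. Nfe2l1 itself had 205, 230 and 225 CPM in DKO and 264, 204 and 207 CPM in SKO liver, with a log2 fold change of -0.03 ± 0.11. Nfe2l2, which encodes the related factor NRF2, had a log2 fold change of 0.02 ± 0.09. Bach1, a repressor at antioxidant elements, had 48.0, 41.7 and 45.6 CPM in DKO, against 57.1, 65.1 and 61.9 CPM in SKO liver. Bach1 fell by 0.44 ± 0.08 on the log2 scale, with an edgeR adjusted p of 0.00481, and kept its call whichever library was left out. Ddi2 encodes the protease that cleaves NRF1 to its active form. It had 200, 207 and 208 CPM in DKO, against 257, 246 and 231 CPM in SKO liver, with a log2 fold change of -0.25 ± 0.08 and an edgeR adjusted p of 0.0442. Ngly1, named after its values were seen as the fourth called gene of this list, encodes the enzyme that removes sugars from NRF1. It had 48.2, 52.5 and 56.6 CPM in DKO, against 64.0, 62.9 and 59.5 CPM in SKO liver, with a log2 fold change of -0.24 ± 0.08 and an edgeR adjusted p of 0.0473. Nfyb, a subunit of the CCAAT-binding factor, had a log2 fold change of -0.28 ± 0.08 and an edgeR adjusted p of 0.0274. The groups did not overlap for any of the 4. The call of Ddi2 was lost without any one library, that of Ngly1 was kept only without DKO replicate 3, and that of Nfyb only without DKO replicate 1. With upper-quartile factors Bach1 alone stayed called, and with total counts all 4 calls were lost, though each log2 fold change stayed below 0.

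None of 6 ubiquitin precursor and activating enzyme genes was called. Uba1, the main activating enzyme, had a log2 fold change of 0.11 ± 0.10. Of 12 genes that carry ubiquitinated proteins to the proteasome or extract them with p97, 1 was called higher and none lower. Over all genes tested, 10.3% were called higher and 9.70% lower. Sqstm1, which encodes the autophagy receptor p62, had 802, 647 and 705 CPM in DKO, against 517, 523 and 445 CPM in SKO liver. It rose by 0.54 ± 0.11 on the log2 scale, with an edgeR adjusted p of 0.00930, and kept its call under all 13 alternatives.

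Of 18 tested genes of MHC class I presentation and interferon-gamma signalling, 4 were called lower in DKO liver and none higher. Over all genes tested, 9.70% were called lower and 10.3% higher. The median log2 fold change of the 18 was -0.07. Tapbp, the chaperone that loads peptides onto class I molecules, had 68.7, 58.6 and 72.2 CPM in DKO, against 87.4, 92.8 and 93.1 CPM in SKO liver. It fell by 0.45 ± 0.09 on the log2 scale, with an edgeR adjusted p of 0.00607, and kept its call whichever library was left out. H2-K1, a class I heavy chain, had a log2 fold change of -0.39 ± 0.11 and an edgeR adjusted p of 0.0316, and its call was kept only without DKO replicate 3 when a library was left out. B2m, the class I light chain, named after its values were seen, had a log2 fold change of -0.40 ± 0.12 and an edgeR adjusted p of 0.0401, and its call was likewise kept only without DKO replicate 3. Irf2, a factor of the interferon pathway, had a log2 fold change of -0.32 ± 0.09 and an edgeR adjusted p of 0.0318, and its call was kept only without DKO replicate 2 or SKO replicate 1. With upper-quartile factors Tapbp alone stayed called, and with total counts none of the 4 did. Of the 18 log2 fold changes, 12 were below 0 and 6 above, and 14 genes were not called. H2-D1, also a class I heavy chain and named after its values were seen, had a log2 fold change of 0.03 ± 0.11. Tap1 and Tap2, likewise named afterwards, were at 0.03 ± 0.13 and 0.004 ± 0.09. Psmb8, Psmb9 and Psmb10, whose values are given above, belong to the same antigen-processing pathway and were not called in either direction. The difference between them and the 4 genes called lower was not tested.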

How the data were processed

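Liver RNA was extracted with Trizol and sequenced on an Illumina protocol, per the labels. The deposited values are raw read counts per gene. Per the submitters' processing notes, the authors used STAR, HTSeq 0.6.1p1, cutadapt 1.13 and DESeq2 with the mm10 build. The sources used here give no annotation release, strand setting or treatment of reads that map to several places. Gene symbols came from GENCODE M21, which held 54165 of the 54232 gene identifiers. The other 67 identifiers were given no symbol.

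Counts were normalised with TMM factors and tested with edgeR 4.0.16 in R 4.3.3 (filterByExpr, robust glmQLFit, glmQLFTest) with genotype as the only term, over all 6 libraries. p-values were adjusted over all 13986 genes, at a threshold of 0.05. DESeq2 1.42.0 and voom in limma 3.58.1 were alternatives, beside other scalings, other filters and leaving out each library. Level per length is normalised CPM per kilobase of the union of annotated exons. Deviations and shares were computed as described beside their values. The fitting script was tested on simulated data. Library pairs of 1 group differed beyond sampling noise (chi-square per degree of freedom of 10.2 to 29.4), so none was treated as a repeat deposit.

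The genes and the lists around them were chosen with earlier results of these data known. All genes of the symbol rule are given by value or range. Of each other list, the text names the 3 called genes of smallest p (the 2 genes of highest level where no gene was called), and Nfe2l1, Nfe2l2, Pomp, Adrm1 and Sem1 in any case. A gene that this rule would name is not reported here. One list symbol was not matched and is not analysed here. Promoter windows were read from a RefSeq table. The last 30 bases of 40 of the 44 windows were found in a transcript of the gene on the stated strand, and none matched the other strand.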

Additional observations from a re-analysis of the deposited data

How the results depend on the processing

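Psmg4 was called higher in each of the 13 alternatives, and no proteasome gene was called lower in any. The count of proteasome genes called higher was 2 with upper-quartile factors and 20 with total counts, and their median log2 fold change was 0.08 and 0.238 under those scalings, as all genes shifted (0.068 and 0.225). Genes called higher and lower over all genes numbered 1856 and 987 with upper-quartile factors and 3848 and 539 with total counts. When a library was left out they ranged from 674 to 1569 higher and from 745 to 1200 lower. They were 942 and 889 without DKO replicate 3, 674 and 745 without SKO replicate 2, and 894 and 890 without SKO replicate 3. These fits hold fewer samples by construction. The sign of uncalled proteasome genes differed from the main fold change for between 0 and 22 genes per alternative, the most with total counts.

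Among the lists, partners called higher numbered 2 with total counts, and partners called lower 0 with upper-quartile factors, total counts, no filter, the filter of 5 CPM in 3 libraries and DESeq2, and 0 in every leave-one-out fit. Regulators of proteasome gene transcription called higher numbered 1 with upper-quartile factors, 2 with total counts and 1 with the 5 CPM filter. Regulators called lower numbered 1, 0 and 2 under those settings, and 1 to 2 when a library was left out. Ubiquitin precursors and activating enzymes called higher numbered 2 with total counts. Shuttle and p97 genes called higher numbered 5 with total counts, and those called lower 0 to 1 when a library was left out, the 1 (Nploc4) without SKO replicate 1. MHC class I and interferon genes called higher numbered 2 with total counts, 1 without a filter and 0 to 1 when a library was left out, the 1 (Ifngr1) without DKO replicate 2. Those called lower numbered 1 with upper-quartile factors, 0 with total counts and 1 to 3 when a library was left out. Ube3c, a ubiquitin ligase of the partner list, turned to 0.21 (adjusted p = 0.0347 in edgeR) with total counts. The median level per length was 52.6 CPM per kilobase with the longest transcript. The Psmb9 to Psmb6 difference ranged from -0.131 to 0.111 when a library was left out, above 0 without DKO replicate 2 (0.111) and without SKO replicate 3 (0.056). Beyond what the settings are built from, the cause of these changes was not tested. No paired analysis was possible because the replicate numbers follow accession order, and no label links a DKO library to an SKO library. With 71 to 176 counts per library in the called gene, depth limits the precision most for the lowest genes (Psma8, Psme2b, Psmb11).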
